A study of Mus musculus with 8 samples.

Results

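The regions described here are sites of open chromatin with a peak in depolarised neurons that lack Brg1 and in resting wild-type neurons, and with no peak in resting neurons that lack Brg1 or in depolarised wild-type neurons. Peaks of 4 deposited lists, 1 per condition, were merged into regions where they overlapped by at least 1 bp on chromosomes 1 to 19. Of 60611 merged regions, 2301 had this pattern, which is 3.80% of all regions and 19% of the 12110 regions with a peak in both of the lists that define it. They were chosen by the presence or absence of a peak in each list, so peak presence and peak height are given below as a description without a test.

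The assay was ATAC-seq, which reads open DNA from the places where Tn5 transposase can insert adapters, and the cells were primary cortical neurons from mouse embryos of stage E16.5. The 4 conditions, each with 2 libraries of 50000 cells, were cKO KCl, cKO basal, WT KCl and WT basal. In cKO neurons (genotype BAF53bCre Brg1F/F), the Cre is under control of BAF53b, a gene of neurons, so that other cells in the culture would keep Brg1. WT neurons are given as Brg1 WT, and the labels do not say whether they carry Cre or the floxed allele. KCl was given at 50 mM for 1 h on day 6 in vitro, after TTX at 1 µM and APV at 100 µM on day 5 to silence spontaneous activity. The labels do not state whether the basal cultures, which had no KCl, received TTX and APV. The 2 libraries of a condition share 1 list, so no value has an error between replicates and no test compares conditions. In bulk cultures, a site open in fewer cells and a site less open in each cell cannot be told apart.

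Brg1, encoded by Smarca4, is an ATPase of the BAF chromatin remodelling complex, which slides and ejects nucleosomes and opens enhancers and promoters to transcription factors. As progenitors become neurons, subunits of the complex are exchanged for neuronal ones, of which BAF53b is one. High KCl depolarises neurons, and the calcium that enters starts a transcription programme led by factors such as Fos, Jun, Egr1 and Nr4a1. A site called in wild-type neurons at rest and in Brg1-deleted neurons after KCl follows neither genotype nor treatment alone, since both differ between the lists that hold it.

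The promoter windows below are shown because a peak of both lists covered them: those of the 5 strongest gene-end members whose summits in both lists fell inside a window, and those of 3 genes taken up further down. Each runs 5′ to 3′ on the strand of the gene, from 250 bases before to 50 bases after an annotated start (RefSeq, GRCm38.p6), so that the start is base 251. Capitals mark matches, on either strand, to the CCAAT box, the ETS motif CCGGAAG, the GC box GGGCGGG, the cAMP response element (CRE) TGACGTC, the AP-1 motif TGANTCA and the NRF1 motif CATGCGC. No match to the last 3 was found in these windows, and none to any of the 6 in those of Abracl and Lrrc59.
Abracl: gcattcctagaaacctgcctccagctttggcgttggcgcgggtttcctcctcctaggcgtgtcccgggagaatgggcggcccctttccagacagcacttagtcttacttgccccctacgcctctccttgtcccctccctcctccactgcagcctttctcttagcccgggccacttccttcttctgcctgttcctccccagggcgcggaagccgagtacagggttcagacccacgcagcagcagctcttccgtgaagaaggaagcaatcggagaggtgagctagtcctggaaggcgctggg
Actr6: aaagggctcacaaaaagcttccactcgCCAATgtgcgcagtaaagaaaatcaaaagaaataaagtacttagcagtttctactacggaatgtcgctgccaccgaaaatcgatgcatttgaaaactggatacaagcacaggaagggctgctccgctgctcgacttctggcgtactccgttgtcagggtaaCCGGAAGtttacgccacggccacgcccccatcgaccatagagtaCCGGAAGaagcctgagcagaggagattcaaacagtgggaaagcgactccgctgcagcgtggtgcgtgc
Lrrc59: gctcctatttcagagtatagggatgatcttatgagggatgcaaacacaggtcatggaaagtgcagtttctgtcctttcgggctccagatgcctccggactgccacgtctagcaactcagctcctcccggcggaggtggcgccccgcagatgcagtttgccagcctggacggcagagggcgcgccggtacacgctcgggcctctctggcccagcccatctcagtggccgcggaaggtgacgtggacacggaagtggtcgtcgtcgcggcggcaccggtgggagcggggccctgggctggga
Tmem200a: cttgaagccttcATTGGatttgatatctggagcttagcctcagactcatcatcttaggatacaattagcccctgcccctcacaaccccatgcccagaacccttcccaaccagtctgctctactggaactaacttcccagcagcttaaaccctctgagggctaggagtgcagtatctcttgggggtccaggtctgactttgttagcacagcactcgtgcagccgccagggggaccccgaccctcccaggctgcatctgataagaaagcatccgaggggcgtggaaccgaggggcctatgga
Zfp959: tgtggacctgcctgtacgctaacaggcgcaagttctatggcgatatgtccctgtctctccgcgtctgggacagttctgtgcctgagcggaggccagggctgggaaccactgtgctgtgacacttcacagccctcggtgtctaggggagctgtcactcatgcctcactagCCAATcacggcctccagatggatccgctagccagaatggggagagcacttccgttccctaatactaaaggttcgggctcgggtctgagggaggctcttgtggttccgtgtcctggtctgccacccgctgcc
Notch1: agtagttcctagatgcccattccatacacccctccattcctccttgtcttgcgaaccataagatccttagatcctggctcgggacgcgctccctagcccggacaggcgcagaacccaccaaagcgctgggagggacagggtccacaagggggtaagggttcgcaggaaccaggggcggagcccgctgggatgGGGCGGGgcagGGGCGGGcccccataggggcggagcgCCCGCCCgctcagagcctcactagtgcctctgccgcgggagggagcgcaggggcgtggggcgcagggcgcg
Hes5: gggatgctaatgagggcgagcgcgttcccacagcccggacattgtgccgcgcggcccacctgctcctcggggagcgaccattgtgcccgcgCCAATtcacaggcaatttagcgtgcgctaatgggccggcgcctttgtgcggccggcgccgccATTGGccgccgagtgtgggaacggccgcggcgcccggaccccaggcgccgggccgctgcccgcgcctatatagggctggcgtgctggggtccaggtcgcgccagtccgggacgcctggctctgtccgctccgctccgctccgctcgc
Dpf3: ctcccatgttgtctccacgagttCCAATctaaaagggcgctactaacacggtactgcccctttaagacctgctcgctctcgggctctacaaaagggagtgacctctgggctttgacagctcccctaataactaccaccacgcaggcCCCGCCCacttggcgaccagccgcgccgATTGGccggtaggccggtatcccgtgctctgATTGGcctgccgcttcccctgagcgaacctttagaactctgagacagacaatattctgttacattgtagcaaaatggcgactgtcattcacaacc
The windows lie at chr10:18023041-18023340 (minus strand) for Abracl, chr10:89732246-89732545 (minus) for Actr6, chr11:94629527-94629826 (plus) for Lrrc59, chr10:26079003-26079302 (minus) for Tmem200a and chr17:55891843-55892142 (plus) for Zfp959. Those of Notch1, Hes5 and Dpf3 lie at chr2:26503773-26504072 (minus), chr4:154960673-154960972 (plus) and chr12:83487687-83487986 (minus). The summits of cKO KCl and WT basal stood at bases 194 and 190 in Abracl, 204 and 203 in Lrrc59 and 131 and 133 in Zfp959, all upstream of the start and within 4 bases of each other. In Actr6 they stood at base 236 in cKO KCl, inside an ETS match, and base 224 in WT basal. In Dpf3 they stood at bases 130 and 139, and in Tmem200a at bases 186 and 242. In Notch1 the cKO KCl summit stood at base 296, downstream of the start, and the WT basal summit at base 235, inside a GC box match. In Hes5 the cKO KCl summit stood at base 288 and the WT basal summit at base 73, so that the same region had its highest point on either side of the start.

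Among the 6 patterns in which exactly 2 lists hold a peak, that of cKO KCl and WT basal was the most frequent, with 2301 regions. The mirror pattern, cKO basal and WT KCl, held 424. The pair sharing KCl (cKO KCl and WT KCl) held 814 and the pair sharing the absence of KCl (cKO basal and WT basal) 1183. The pair of cKO lists held 776 and the pair of WT lists 1131. The 2 lists that define the members are also the longest: cKO KCl had 24947 peaks and WT basal 33328, against 19921 in cKO basal and 19847 in WT KCl. When every list was cut to its 19847 peaks of lowest p-value, 1236 regions had the pattern, the mirror 600 and the other 4 pairs 720 to 869. The pair sharing KCl then held 869 and the pair sharing its absence 733. The cut left the lists at unequal stringency. The lowest −log10 p kept was 6.74 in WT basal, 6.10 in cKO KCl, 4.22 in cKO basal and 3.55 in WT KCl. Cutting the lists moved the count by over 1.5 times and left the order of first and last unchanged, while the order between them changed. Members made up 9.46% of the regions with a cKO KCl peak and 7.05% of those with a WT basal peak.

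**Figure D1:**
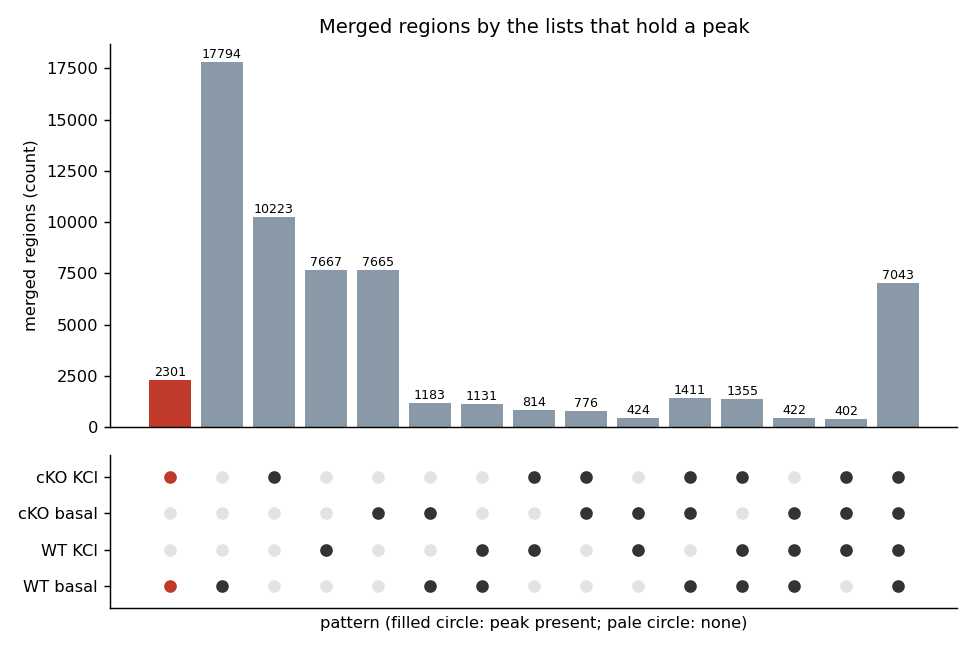
Number of merged regions (bars, count) for each combination of lists that hold a peak, with filled circles for lists with a peak. The pattern of cKO KCl and WT basal only (red, 2301 regions) is the tallest bar with 2 filled circles, and the mirror pattern of cKO basal and WT KCl (424) the shortest of these.

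Members were peaks of ordinary height in both lists. The fold is that of the summit over its local background, as deposited, and its median over members was 2.99 in cKO KCl and 2.83 in WT basal, against 3.08 and 2.82 over all peaks of those lists. Folds of members ran from 2.03 to 5.56 in cKO KCl and from 1.93 to 5.44 in WT basal. The number of fragments over the summit, recovered from the deposited fold and p-value, had a median of 30 in cKO KCl (range 21 to 58) and 32 in WT basal (22 to 68), over a most frequent background of 8.36 and 9.30 fragments. The same measure, which follows depth, was 9.47 in cKO basal and 8.23 in WT KCl. The part of depth in the pattern was not tested.

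The 2 folds of a member were close. For 1682 of 2301 members they were within 1.2 times of each other, and for 46 they were over 1.5 times apart, 40 of them higher in cKO KCl and 6 higher in WT basal. The cKO KCl fold was the higher one at 1434 members, with a median log2 ratio of 0.07, beside 0.06 over all 12110 regions with a peak in both lists. Of those 12110, 240 were over 1.5 times higher in cKO KCl and 73 over 1.5 times higher in WT basal. Summits of the 2 lists lay a median of 65 bp apart and within 50 bp in 41.9% of members. In the other 5 pairs the median distance was 75.5 to 87 bp.

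**Figure D2:**
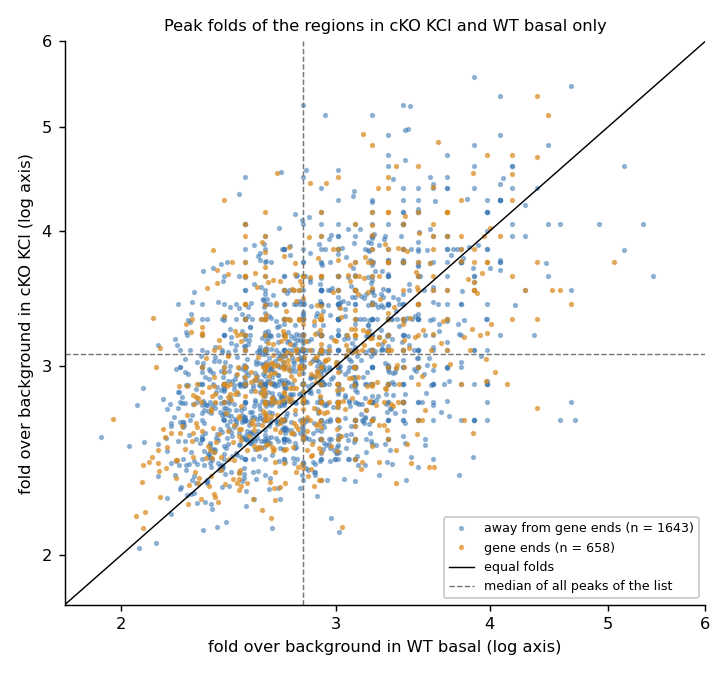
Fold over background in cKO KCl (vertical, log axis) against that in WT basal (horizontal, log axis) for the 2301 members, 1 point each, with gene-end members in orange and the others in blue. Points spread about the line of equal folds, around the median of each list (dashed, 3.08 in cKO KCl and 2.82 in WT basal), and none passes 5.56 on either axis.

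Membership became rarer with peak height. Peaks were ranked by fold within their list, as the percent of the list at or below that fold, and a region was placed by the lower of its 2 ranks. Among regions in both lists with a lower rank of at most 20, 45% (725 of 1611) had no peak in either other list. The share was 25.5% (509 of 1998) at ranks of 40 to 60, 3.55% (70 of 1974) at 80 to 90 and 0.465% (5 of 1076) at 90 to 95. Above 95 there was no member among 983 regions, with an exact upper bound of 0.375%. In each bin up to 90 this share was higher than in the other 5 pairs of lists. At ranks of 60 to 80 it was 12.7% (95% interval 11.5 to 14), against 1.64% for the mirror pair and 2.76 to 4.86% for the other 4. The lists that had to lack a peak were the shortest for cKO KCl and WT basal, and the longest for the mirror pair. These shares were not recomputed with lists of equal length. The intervals cover counting error only. Peak calls in the 2 other lists are part of the rule, so these shares describe the members and test nothing.

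**Figure D3:**
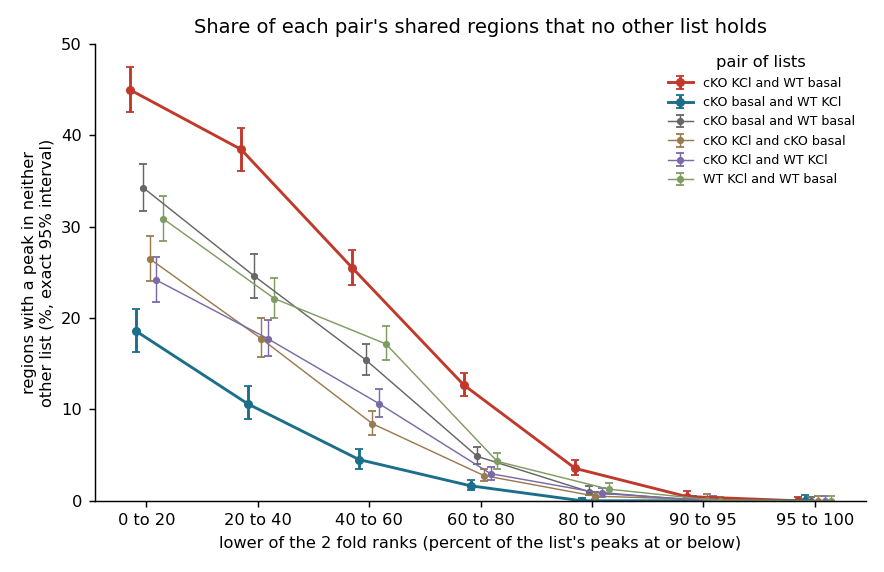
Share of the regions shared by a pair of lists that have no peak in either other list (percent, bars are exact 95% binomial intervals), by the lower of the 2 fold ranks of the region. The pair of cKO KCl and WT basal (red) falls from 45% in the weakest bin to 0.465% between ranks 90 and 95, and lies above the other pairs in every bin up to 90. The lists were not cut to equal length.

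Peaks of the 2 other lists seldom lay close by. One of cKO basal or WT KCl lay within 500 bp of 254 members (11.0%, 95% interval 9.79 to 12.4), and the median distance to the nearest was 13.4 kb. In the other 5 pairs, 13.5 to 19.5% had such a neighbour. For members the lists searched were the shortest, with 19921 peaks in cKO basal and 19847 in WT KCl. For the mirror pair they were the longest, with 24947 in cKO KCl and 33328 in WT basal. The part of list length in this share was not tested. The closest case among members was a site inside Tanc1 (chromosome 2, 59728691 to 59729095), which abutted a peak of a list without it. Sites at the 5′ ends of Prtg, 3 bp away, and Cmtm4, 4 bp away, followed. At the other edge of the rule, 3 members rested on an overlap of 1 bp, inside Stimate and Epb41l4a and 12.6 kb from Pnrc1. Sites inside Rora, Caskin1 and Rab11fip5 were left out with gaps of 1, 3 and 4 bp between a cKO KCl and a WT basal peak. In the authors' deposited tables, the lowest −log10 q of a member was 1.57 in cKO KCl and 1.31 in WT basal, beside 1.51 and 1.31 for all peaks of these lists.

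A region counted as a gene-end region when it lay no more than 1 kb from the first or last annotated base of a protein-coding gene. The strongest member of this kind was at Abracl. Abracl, a small gene of the costars family, had a fold of 5.13 in cKO KCl and 4.47 in WT basal (47 and 45 fragments; chromosome 10, 18022839 to 18023336). Actr6 encodes a subunit of the SRCAP complex, which places the histone variant H2A.Z, and had folds of 5.34 in cKO KCl and 4.37 in WT basal (49 and 44 fragments; chromosome 10, 89732131 to 89732476). At Lrrc59, a gene of an endoplasmic reticulum membrane protein, they were 4.70 in cKO KCl and 4.18 in WT basal (chromosome 11, 94629538 to 94630130). These 3 stood above rank 90 in both lists.

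Gm4925 followed with folds of 4.69 in cKO KCl and 4.37 in WT basal, and a peak of a list without it lay 180 bp away. Tmem200a had 4.52 in cKO KCl and 4.18 in WT basal, with such a peak 0.478 kb away. Ufm1, a ubiquitin-like modifier, had 4.53 in cKO KCl and 3.88 in WT basal, with such a peak 119 bp away. The zinc finger genes Zfp959 and Zfp40 had 4.70 and 4.28 in cKO KCl and 3.98 and 4.18 in WT basal. Harbi1, a gene derived from a transposase, had 4.28 in cKO KCl and 3.79 in WT basal. Snw1 (a splicing factor), Cox7c (a subunit of cytochrome c oxidase) and Alg8 (a glucosyltransferase of N-glycan synthesis) each had 38 fragments and a fold of 4.17 in cKO KCl, and 37 fragments and 3.69 in WT basal. In all 12, the cKO KCl fold was the higher one, beside 62.3% of all members. The choice by rank favours this direction, since similar ranks stand for a higher fold in cKO KCl. At Snw1, Cox7c and Alg8 the ranks were 84.3 in cKO KCl and 84.5 in WT basal. The strongest sites away from gene ends were chosen in the same way.

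Away from gene ends, the strongest member lay inside Wls, which carries Wnt proteins to the cell surface, with folds of 5.45 in cKO KCl and 4.66 in WT basal (chromosome 3, 159885356 to 159885633). The next was inside Cpeb1, a regulator of mRNA polyadenylation and local translation in neurons, at 4.81 in cKO KCl and 4.47 in WT basal (chromosome 7, 81372339 to 81372669). Both were above rank 90 in both lists, the only ones away from gene ends to be so. A site inside Vps50, a subunit of an endosomal recycling complex, had 4.60 in cKO KCl and 5.15 in WT basal, and was the only one of the 24 strongest with the higher fold in WT basal. Sites inside Map1b (a microtubule-associated protein of axons, 4.42 in cKO KCl and 4.08 in WT basal), Jarid2 (a partner of Polycomb complex PRC2, 4.81 and 3.89) and Nckap5 (4.48 and 4.10) were of this group too.

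The intergenic members of this group included 1 site 55.5 kb from Rad23b, a DNA repair gene, which had the highest cKO KCl fold of all members, 5.56, against 3.89 in WT basal. Others lay 71.6 kb from Ccdc50 (4.92 in cKO KCl and 4.08 in WT basal), 5.37 kb from Cd209a (5.34 and 4.08) and 383 kb from Usp25, a deubiquitinase gene (4.60 and 4.18). A pair lay at Sfi1 on chromosome 11, 1 inside it (4.60 in cKO KCl and 3.89 in WT basal) and 1 at 3127508 to 3127715, 4.14 kb beyond it (4.60 and 4.18). With peaks up to 150 bp apart merged, 23 of these 24 sites remained members, and under the other alternatives that change membership all 24 did.

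Members lay at gene ends in 658 cases (28.6%, 95% interval 26.8 to 30.5), inside genes in 912 (39.6%) and between genes in 731 (31.8%). Over all regions the gene-end share was 22.6%. Put the other way, 4.80% of all gene-end regions and 3.50% of all other regions were members. The mirror pattern had 31.4% at gene ends (27.0 to 36.0), the pair of KCl lists 38.1% (34.7 to 41.5) and the pair of basal lists 25.5% (23.1 to 28.1). Regions missing only from WT KCl (1411) had 44.2%, those missing only from cKO basal (1355) 53.7% and those in all 4 lists (7043) 75.8%. Peak heights were close between positions: gene-end members had a median fold of 2.99 in cKO KCl and 2.82 in WT basal, and the others 2.99 and 2.84.

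**Figure D4:**
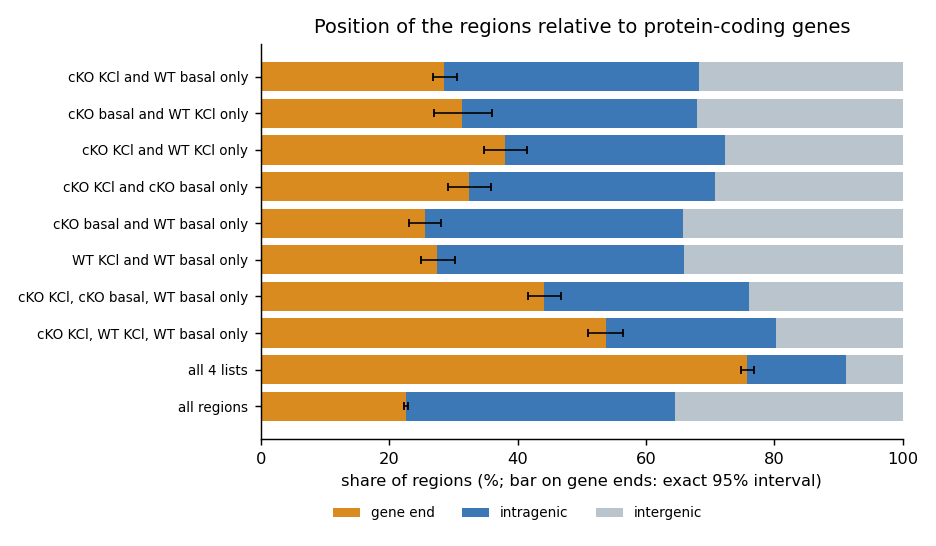
Share of regions (percent) at gene ends (orange, with exact 95% binomial interval), inside genes (blue) and between genes (grey), for members (top bar), other patterns and all regions. Gene ends take 28.6% of members, within the range of the other pairs of lists (25.5 to 38.1%) and far from the 75.8% of regions in all 4 lists.

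Gene-end members lay at 5′ ends about as often as gene-end regions in general. Of those whose strand was in the promoter table, 475 (91.3%, 88.6 to 93.6) lay at the 5′ end. Of the rest, 45 lay at the 3′ end, and for 138 the strand was unknown. The 5′ share was 88.4% (87.8 to 89.0) over all gene-end regions, 84.3 to 92.5% in the other 5 pairs and 98.9% in regions of all 4 lists. On the 18 chromosomes with promoter windows, 642 of 2205 members (29.1%) lay within 1 kb of an annotated start. Their summits stood a median of 44.5 bp downstream of the start in cKO KCl and 46 bp downstream in WT basal, and 264 and 260 of the 642 were upstream. In regions of all 4 lists within the same distance (5029), median summits stood between -42 and -34 bp in the 4 lists, negative being upstream, and 60.8 to 64.4% were upstream. The mirror pattern (113 regions) had medians of 69 bp downstream in cKO basal and 30 bp downstream in WT KCl.

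**Figure D5:**
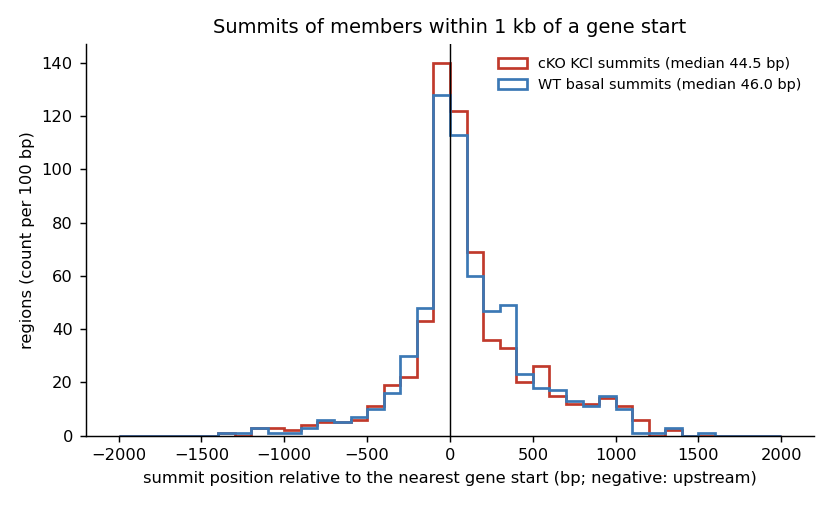
Number of members (count per 100 bp) by the position of their summit relative to the nearest annotated gene start (bp, negative is upstream), for the 642 members within 1 kb of one. The summits of cKO KCl (red, median 44.5 bp) and WT basal (blue, median 46 bp) are both most frequent in the 100 bp before the start, and the longer tail lies downstream.

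Promoter windows covered by members were less rich in CpG than those of constant sites. Of 2205 members, 457 (20.7%) overlapped a window, and 77 of these overlapped more than 1. For each region of any set, only the overlapped window whose start lay nearest the middle of the region was taken. Windows of members had a median GC content of 59.7% and 18 CpG dinucleotides in 300 bases. Windows of regions in all 4 lists had 65% and 25, windows under the mirror pattern 62.2% and 18.5, and the set of all 31365 windows had 53% and 7. The GC box occurred in 39.2% of member windows (34.7 to 43.8), in 51.1% of windows overlapped by any region, in 58.5% of those of regions in all 4 lists, and in 25.8% of all windows. The CCAAT box occurred in 34.1% of member windows (29.8 to 38.7), 38.3% of those of any region, 43.9% of those of all 4 lists and 37.3% of all. ETS matches were in 14.4% (11.3 to 18), 17.3%, 19.8% and 9% of these sets, in the same order.

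AP-1 and CRE motifs, of factors that neuronal activity engages, were about as frequent in member windows as in windows overlapped by any region. The AP-1 motif TGANTCA, bound by Fos and Jun dimers, was in 25 of 457 member windows (5.47%, 3.57 to 7.97), against 4.30% of windows of any region, 3.21% of those of all 4 lists and 7.85% of all windows. The CRE motif TGACGTC, bound by Creb1, was in 23 (5.03%, 3.22 to 7.46), against 5.54%, 6.70% and 3.25% of these 3 sets. MEF2 matches were in 1 member window (0.219%), against 0.341%, 0.210% and 0.568%, which is too few to compare. CAGATG, an E-box of neurogenic bHLH factors, was in 12.3% (9.39 to 15.6), against 10.7%, 8.48% and 17.2%. TAATTA, a homeodomain motif, was in 3.72% (2.18 to 5.89), against 1.78%, 1.09% and 5.27%. The NRF1 motif was in 5.03% of member windows, against 7.2%, 7.83% and 3.9%. The RFX motif GTTGCCA was in 4.38%, against 4.11%, 4.03% and 4.41%, and the CTCF core AGGNGGC in 37.2%, against 43.7%, 47.4% and 29.4%. Paired NFI sites (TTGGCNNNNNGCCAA) were in 0 of 457 member windows, against 0.0110%, 0.0210% and 0.0383%. A match is letters in a window, on either strand, and motifs may overlap. Sequences of members away from gene starts were not analysed here.

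Across the genome, 4289 of 20665 protein-coding genes (20.8%) had a member within 50 kb, 662 (3.20%) had at least 2 and 730 (3.53%) had 1 at a gene end. Of the 285 genes in 17 lists of neuronal and other functions, 82 (28.8%) had a member within 50 kb. Median regions per gene ran from 3.5 to 12 over the lists, against 6 over all genes, so members are given below as a share of the regions near a list, beside 3.80% over all regions. Regions near neighbouring genes were counted once per list. A region near genes of different lists was counted in each, as was the member shared by Ier2 and Cacna1a.

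Neural progenitor genes had the largest share of the 17 lists: 14 of the 127 regions near them (11.0%) were members, and 8 of 17 genes (47.1%, 95% interval 23.0 to 72.2) had at least 1. Notch1, the gene of a receptor through which neighbouring cells keep progenitors from differentiating, had 4 members among 12 regions. They lay at its 5′ end (chromosome 2, 26503690 to 26503957; fold 2.36 in cKO KCl and 2.31 in WT basal), inside it at 26500848 to 26501140 (3.49 and 3.22) and at 26487275 to 26487578 (2.64 and 2.25), and 48.6 kb beyond it (2.62 and 2.5). The Notch ligand gene Dll1 had 1 at its 5′ end (2.26 in cKO KCl and 2.15 in WT basal) and the Notch target Hes5 1 at its start (2.44 and 2.72). Summits of these 6 sites held 32 to 67 fragments, each above the member median of its list, while 5 of the 6 folds in each list were below the median. Local backgrounds at the start of Notch1 were 15.5 fragments in cKO KCl and 18.4 in WT basal. At Dll1 the 2 peaks overlapped by 19 bp, and a peak of a list without the site lay 548 bp away.

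The intermediate filament gene Nes had 3 members 6.57, 22.1 and 35.9 kb away, with folds of 2.71 to 2.89 in cKO KCl and 2.44 to 2.93 in WT basal. Vim, another filament gene of progenitors, had 1 at its 5′ end (3.24 in cKO KCl and 3.87 in WT basal), 159 bp from a peak of a list without it. The proneural gene Neurog2 had 2 within 5 kb (2.99 and 3.21 in cKO KCl, 3.07 and 2.82 in WT basal). Eomes, a factor of intermediate progenitors, and Fabp7, a lipid-binding protein of radial glia, had 1 each. This list already stood out in earlier results of these data, so its share is no independent observation.

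Of 26 BAF subunit genes, 6 had a member within 50 kb, 7 of 285 regions in all (2.46%). The core subunit gene Smarce1 had 1 at a gene end (fold 3.63 in cKO KCl and 2.82 in WT basal; chromosome 11, 99230685 to 99230964). Dpf3, which encodes a neuronal subunit with PHD fingers, had 1 at its start (4.92 in cKO KCl and 3.15 in WT basal; chromosome 12, 83487755 to 83488037), with 50 and 35 fragments and a peak of a list without it 367 bp away. Arid1b had 2 inside it (2.59 and 3.21 in cKO KCl, 2.58 and 2.26 in WT basal). Smarca4 itself, the gene deleted in cKO neurons, had 1 among 12 regions, 35.3 kb outside it (2.84 in cKO KCl and 2.55 in WT basal). Peak lists do not show whether the floxed exons were lost, so the deletion was not checked here. Bcl11b and Dpf2 had 1 each.

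Rapid response genes, transcribed within minutes of activity, had 5 members among 188 regions (2.66%), and 5 of 22 genes had 1 each. At Ier2 it covered a gene end (chromosome 8, 84662623 to 84662940; fold 2.60 in cKO KCl and 2.24 in WT basal). At Jun it lay 0.966 kb from the 5′ end (2.76 in cKO KCl and 3.33 in WT basal, 48 and 60 fragments), with a peak of a list without it 349 bp away. Members lay 12.7 kb from Nr4a1 (3.19 in cKO KCl and 2.46 in WT basal), inside Nr4a2 (2.37 and 2.81) and 46.7 kb from Junb (3.22 and 3.18). Fos, Fosb, Egr1, Arc and Npas4 had none. Delayed response genes had 2 members among 94 regions (2.13%), inside Inhba, an activin subunit gene (4.02 in cKO KCl and 3.14 in WT basal), where it was the only region within 50 kb, and 28.5 kb from Nfil3 (2.95 and 3.54).

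Genes of neuronal identity had members at 6 of 20 excitatory genes (11 of 227 regions, 4.85%) and 5 of 17 inhibitory genes (6 of 94, 6.38%). Nfia, a factor of glial and neuronal differentiation, had 4 among 29 regions, 3 of them inside the gene, with folds of 2.75 to 3.81 in cKO KCl and 2.60 to 3.21 in WT basal. Sox5, a factor of deep-layer neurons, had 2 among 36 regions, 1 inside it (3.53 in cKO KCl and 3.11 in WT basal) and 1 at a gene end, 0.761 kb outside it (3.04 and 2.70). Cux1, an upper-layer factor, had 2. Among inhibitory genes, Nxph1 had 2 inside it, of which 1 had folds of 4.25 in cKO KCl and 3.21 in WT basal, and Calb2 had 2. Calb2, Dlx2 and Maf each had 1 at a gene end.

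Axon guidance genes had members at 10 of 20 genes (12 of 190 regions, 6.32%). The Eph receptor genes Ephb2 (2.66 in cKO KCl and 2.81 in WT basal) and Epha7 (2.42 and 3.57) had 1 at a gene end, and Slit3, a repellent ligand gene, had 2 inside it. Ion channel genes had members at 7 of 20 genes (9 of 218, 4.13%). Cacna1c, an L-type calcium channel gene that carries the calcium signal of depolarisation, had 3 outside its bounds (2.51 to 3.21 in cKO KCl and 2.62 to 2.78 in WT basal), and the potassium channel genes Kcnc1 and Kcnj6 had 1 at a gene end. Synapse genes had 5 members among 227 regions (2.20%), 2 of them inside Nrxn3 (2.89 and 3.95 in cKO KCl, 3.98 and 3.11 in WT basal).

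Lists of other cell types and functions held members too. Silent developmental genes had 9 among 125 regions (7.2%), with 2 near Hoxd10. None of these lay at an end of a gene of this list, and 3 of its 19 genes had a member within 10 kb. The member near Myod1 is also the gene-end member of Kcnc1. Microglia genes had 4 of 79 (5.06%) and astrocyte genes had 4 of 98 (4.08%). Cell cycle genes had 4 of 117 (3.42%), with Top2a at a gene end (2.99 in cKO KCl and 3.10 in WT basal), and housekeeping genes 3 of 90 (3.33%). Vascular genes had 2 of 65 (3.08%), oligodendrocyte lineage genes 3 of 99 (3.03%), 2 of them near Pdgfra, and DNA repair genes 2 of 137 (1.46%). As a check of cell type, gene-end peaks at the 6 general neuron markers numbered 4 in cKO KCl, 4 in cKO basal, 4 in WT KCl and 5 in WT basal, with Map2, Tubb3 and Syt1 in each list and Rbfox3 in none, and Map2 also had a member at a gene end. Of 4 excitatory markers, Neurod6 had one in each list, Tbr1 in cKO KCl and cKO basal and in neither WT list, and Neurod2 and Slc17a7 in none. Of 3 inhibitory markers, Gad1 had one in cKO KCl only, Dlx1 in cKO basal and WT KCl, and Gad2 in none. The 3 microglia and 2 endothelial markers had none in any list. Of 3 astrocyte markers, none had a peak in cKO KCl, cKO basal or WT KCl, and Gfap and Aldh1l1 had one in WT basal. Of 3 oligodendrocyte lineage markers, 1, 2, 1 and 2 had one in cKO KCl, cKO basal, WT KCl and WT basal. The part of other cells in these results was not tested.

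Members were spread along the genome. Their share of the regions of a chromosome ran from 3.30% on chromosome 19 (95% interval 2.5 to 4.26) to 4.77% on chromosome 12 (3.98 to 5.66). Inside genes of up to 20 kb they made up 4.4% of regions, and inside genes over 300 kb 4.22%. Auts2, a gene of neuronal migration that spans 1106 kb, held the most, 4 of its 35 regions, with folds of 2.78 to 3.23 in cKO KCl and 2.43 to 3.40 in WT basal. Notch1 held 3 of 6 regions within its 45.9 kb, and those 6 included no region of cKO basal or WT KCl. Rnf144a held 3 of 11, Tmem132b 3 of 13, Chst11, a chondroitin sulfotransferase gene, 3 of 14, and Pde1c, a calmodulin-dependent phosphodiesterase gene, 3 of 18. The nearest region of all 4 lists was a median of 79.5 kb from a member, beside 54.9 to 74.8 kb in the other 5 pairs.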

How the data were processed

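Paired reads of 75 bp came from 8 ATAC-seq libraries, with a depth of 60 M reads per library according to the labels. Per the submitters' processing notes, Bowtie2, MACS2 and GRCm38 (mm10) were used. For versions, settings, duplicate removal, the Tn5 shift and the combining of both libraries, the sources used here state nothing. Each condition has a deposited peak list of nucleosome-free signal, tied to it by genotype and treatment in its name. The authors gave each peak a score, a ratio (fold) of summit over local background, a −log10 p-value, a −log10 q-value and a summit position. No columns of unmatched samples were present (0).

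Peaks on chromosomes 1 to 19 were merged where they overlapped by at least 1 bp. The fold, read as (pileup + 1)/(background + 1), and the Poisson p-value gave a whole-number pileup for 100% of peaks, within 0.001 in −log10 p. Where a list had several peaks in a region, the one of highest fold was taken. Genes (20665 protein-coding symbols) and promoter windows came from RefSeq tables of GRCm38.p6. Exons and introns were not told apart.

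Intervals of shares are exact binomial ones at 95% (Clopper-Pearson) and hold counting error alone. No test was made. Python 3.11.15, pandas 2.3.3 and scipy 1.17.1 were used, and the scripts were tested on simulated peaks. The members and gene lists were chosen with earlier results of these data known. Named sites are the 12 strongest at gene ends and the 12 strongest elsewhere by the lower of the 2 ranks, listed genes with 2 members or a gene-end member, and the 6 genes with most members inside them. Some other listed genes were named after their values were seen, and so were the 3 genes whose promoters are printed beside the 5 strongest.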

Additional observations from a re-analysis of the deposited data

How the results depend on the processing

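Cutting every list to 19847 peaks gave 1236 members, 47 listed genes with a member within 50 kb, median folds of 3.18 in cKO KCl and 3.11 in WT basal, and a median log2 ratio of 0.048. Requiring the 2 peaks to overlap by 50% of each gave median folds of 3.03 in cKO KCl and 2.90 in WT basal. Merging peaks up to 150 bp apart lowered the share of members with a peak of another list within 500 bp to 6.37%. That share was 5.56% within 200 bp and 14.8% within 1 kb, as a distance limit must make it. The gene-end share was 23.7% with a limit of 500 bp and 33.1% with 2 kb, and 50 listed genes had a member within 10 kb. In the other 41 of 54 recomputed values, results stayed within their interval or, for counts, within 1.5 times. These 41 include 6 checks of whether the named sites remained members. They also include the listed genes with a member within 100 kb, 123 against 82, which is at the limit. Among the 41 too were the member count under a stricter q (2262 in all lists, 2237 in the pair only), under the 50% overlap (1701), with merging (2323) and with chromosomes X and Y (2391). Only the median log2 ratio could have changed direction, since counts, shares and folds cannot be negative. Its 6 recomputed values, from 0.048 to 0.084, all stayed positive.

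No paired analysis was possible because each condition has 1 list and none per replicate. Leaving out a library was not run, for the same reason, nor was the motif search around summits, for want of a genome. Whether the 24 named sites remained members was an alternative chosen after seeing the data. Member summits held a median of 30 fragments in cKO KCl and 32 in WT basal, and absence from cKO basal or WT KCl says that no peak was called, not that the site was closed.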

Other observations

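Chromosomes X and Y, which the rule leaves out, held 743 peaks in cKO KCl, 733 in WT basal, 563 in cKO basal and 382 in WT KCl. Chromosome X held 90 further regions with a peak in cKO KCl and WT basal only, and chromosome Y held 0. They were 6.37% of the 1412 merged regions of these chromosomes, and 39 of them (43.3%, 95% interval 32.9 to 54.2) lay at gene ends, beside 442 of all 1412 (31.3%, 28.9 to 33.8). The difference was not tested. The strongest lay at a gene end of Maoa, which encodes the monoamine oxidase that breaks down serotonin and noradrenaline (X, 16618252 to 16618957), with folds of 4.53 in cKO KCl and 4.86 in WT basal and 43 and 49 fragments. Sites inside Tmem29 (4.38 in cKO KCl and 4.66 in WT basal) and Nhs (4.49 and 3.79), and at gene ends of Rtl8b (4.17 and 4.18) and 2610002M06Rik (4.06 and 3.79), came next.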
